A study of Mus musculus with 16 samples.

Results

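Protein folding in the endoplasmic reticulum (ER) was followed through 10 genes in 16 poly(A) RNA libraries of C2C12 cells, a mouse myoblast line. They are Hspa5, Hsp90b1, Calr, Pdia4, Pdia6, Dnajb9, Sdf2l1, Creld2, Herpud1 and Xbp1, chosen by name as ER chaperones and their helpers, 10 of the 24497 genes in the libraries, and all 10 passed the filter on low counts. Proteins that enter the ER are folded there by chaperones and by enzymes that form disulfide bonds. When unfolded protein accumulates, the sensors IRE1, ATF6 and PERK start the unfolded protein response, in which IRE1 cuts a short intron out of Xbp1 RNA and ATF6 and spliced XBP1 raise the transcription of chaperone genes. Muscle cells that differentiate change what they secrete and build a specialised ER, the sarcoplasmic reticulum, and activity of this response has been described in myoblasts.

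The cells carried 1 of 2 genotype labels, WT or MYOD-/- (CRISPR-Cas9, screened from single cells, so that the label may stand for 1 clone), and 1 of 2 stably transfected plasmids, a control vector (EV) or one that carries MUNC in its spliced form. MUNC is a noncoding RNA transcribed from upstream of Myod1, the gene of the muscle transcription factor MYOD. Each of these 4 lines was sampled proliferating in growth medium (GM) and in differentiation medium (DM), with 2 libraries per group and 8 groups. The labels give C57BL/6 skeletal muscle at postnatal day 21 as the origin of the line. Whether replicates came from separate cultures is not stated there, so each p-value reflects the spread between these libraries alone, which may be technical.

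Myod1, the gene named by the genotype label, went against that label. It stood at 0.0149 to 0.291 TPM (transcript abundance corrected for length and library total) in the 4 WT-labelled EV libraries and at 12.1 to 39.7 TPM in the 4 EV libraries labelled MYOD-/-. With MUNC it was 1.92 to 4.10 TPM under the WT label and 4.35 to 20.1 TPM under the MYOD-/- label. The labels do not name which part of Myod1 was deleted, and groups are called by their labels throughout. Library totals were 35.8 to 107.7 M estimated counts. The 8 libraries numbered replicate 2 stood apart, with Zrsr1 at 1.49% to 12.97% of their counts against 0.0079% to 0.0344% in replicate 1. The 8 muscle markers summed to 119 to 274 TPM in GM. In DM they summed to 183 to 272 TPM (WT-labelled EV), 346 to 387 (WT-labelled MUNC), 653 to 659 (MYOD-/- labelled EV) and 627 to 689 (MYOD-/- labelled MUNC). Among them the myoblast gene Myf5 lay at 62.5 to 136 TPM and the satellite cell gene Pax7 at most at 0.059 TPM. The others ranged more widely over the 16 libraries. Myog lay at 0.0251 to 53.1 TPM, Cdh15 at 0.87 to 90.6, Chrna1 at 1.29 to 304, Des at 1.76 to 29.8 and Vcam1 at 1.87 to 128. The 5 fibroblast markers summed to 13.8 to 477 TPM in GM and 357 to 2174 TPM in DM (Dcn 0.407 to 1145, Col1a1 12.3 to 791), with Thy1 at 0 in 13 of 16 libraries. The 5 leukocyte markers summed to 0.743 to 3.26 TPM, and Epcam (epithelial) was at 0 in all 16. The 5 endothelial markers summed to 0.077 to 0.259 TPM under the WT label and 0.453 to 7.34 TPM under the MYOD-/- label, with Tek up to 6.84, Cdh5 up to 3.06 and Emcn at 0 in all 16. The 4 epithelial markers summed to 10.5 to 29.8 TPM in GM and 0.572 to 7.60 TPM in DM (Krt14 0.385 to 29.7). The part of the muscle, fibroblast and epithelial markers, which moved with the medium, and of the endothelial markers, which moved with the genotype label, in the results below was not tested. In these bulk libraries fewer cells of a type and less RNA per cell cannot be told apart.

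The upstream sequences of the 10 genes were examined first, because ATF6 and XBP1 act through known short elements and the elements show which genes share a regulatory letter pattern. Sequences are those of RefSeq (GRCm38.p6), 5′ to 3′, and all 10 genes matched. The ER stress response element, ERSE, was searched on both strands as CCAAT and CCACG separated by 9 bases of any kind, in the 250 bases before the annotated start. It was present in 5 of the 10 genes, against 0.113% of 32851 mouse promoters of the same length. With at most 1 mismatch it was present in 6 of 10, against 1.32%. ERSE-II, ATTGG and CCACG separated by 1 base of any kind, was found upstream of Herpud1 alone among the 10 and in 0.0304% of promoters. The core of the UPR element, TGACGTG, was found upstream of Hspa5 and in 1.65% of promoters. The CCAAT box, which is also a part of ERSE and, read on the other strand, of ERSE-II, was found upstream of 9 of 10 and in 33.8% of promoters. These 5 searches and the window were chosen after the promoters had been looked at, so the counts are a description without a test. The stress elements were already known for ER chaperone genes and may have been defined on some of these 10. Their excess over all promoters is therefore no independent support. A match is no proof of binding, and Pdia4, Dnajb9, Sdf2l1 and Xbp1 merely lacked exact letters of the first 3 elements in this window. The elements are printed as read on their own strand, with the fixed letters in capitals.
Hspa5 ERSE, 65 to 47 bases before the start: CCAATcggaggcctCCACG
Hsp90b1 ERSE, 212 to 194 bases before the start: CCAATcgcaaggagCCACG
Hsp90b1 ERSE on the reverse strand, 107 to 89 bases before the start: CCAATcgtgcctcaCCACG
Pdia6 ERSE, 98 to 80 bases before the start: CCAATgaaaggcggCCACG
Calr ERSE on the reverse strand, 162 to 144 bases before the start: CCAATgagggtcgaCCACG
Creld2 ERSE on the reverse strand, 126 to 108 bases before the start: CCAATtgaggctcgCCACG
Herpud1 ERSE-II, 52 to 42 bases before the start: ATTGGgCCACG

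The whole window is shown for 3 of the genes, with exact matches in capitals. Hspa5 holds an ERSE and a UPR element core (157 to 151 bases before the start), Hsp90b1 holds an ERSE on each strand, and Pdia6 is the gene with the most calls below.
Hspa5, chr2:34771840-34772089, plus strand: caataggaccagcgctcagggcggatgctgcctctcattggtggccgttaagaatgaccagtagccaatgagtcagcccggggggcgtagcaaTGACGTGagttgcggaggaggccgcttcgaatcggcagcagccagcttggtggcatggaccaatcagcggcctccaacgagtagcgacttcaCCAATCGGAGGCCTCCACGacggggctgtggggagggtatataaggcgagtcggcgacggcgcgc
Hsp90b1, chr10:86705445-86705694, minus strand: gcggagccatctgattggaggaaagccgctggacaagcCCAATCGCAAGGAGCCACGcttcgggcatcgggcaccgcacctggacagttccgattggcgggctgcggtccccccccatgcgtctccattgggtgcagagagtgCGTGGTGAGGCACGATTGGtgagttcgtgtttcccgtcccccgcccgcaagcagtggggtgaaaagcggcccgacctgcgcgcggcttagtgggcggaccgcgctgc
Pdia6, chr12:17266339-17266588, plus strand: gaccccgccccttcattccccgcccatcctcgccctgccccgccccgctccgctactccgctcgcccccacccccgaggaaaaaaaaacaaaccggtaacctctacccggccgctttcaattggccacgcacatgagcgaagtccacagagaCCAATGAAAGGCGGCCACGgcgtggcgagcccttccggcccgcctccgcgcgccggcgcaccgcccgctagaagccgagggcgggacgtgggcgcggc

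**Figure D1:**
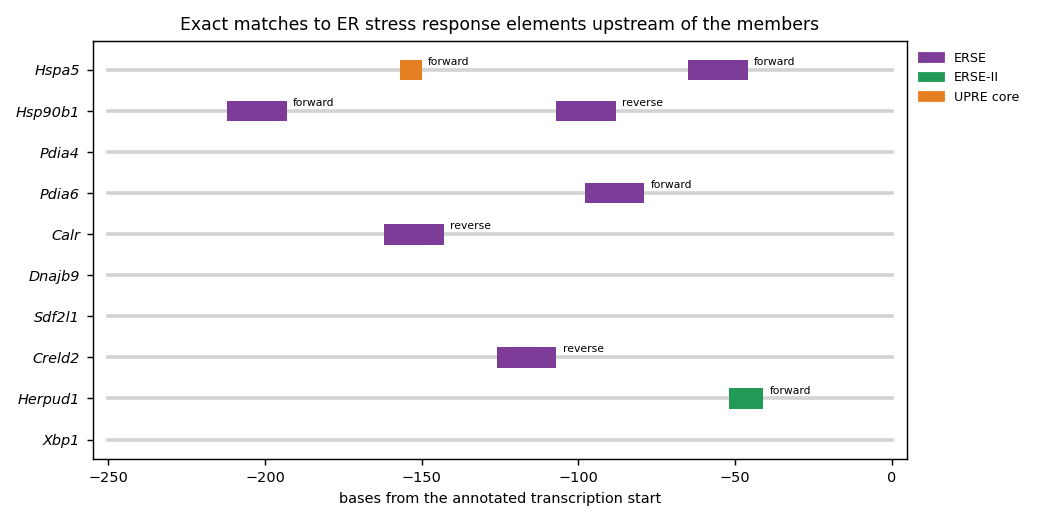
Positions of exact matches to 3 elements in the 250 bases upstream of the 10 genes (x axis, bases from the annotated transcription start, to scale; 1 grey line per gene; colour gives the element, the text the strand). ERSE is drawn for Hspa5, Hsp90b1 (on each strand), Pdia6, Calr and Creld2, and ERSE-II for Herpud1.

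By length-corrected level the 10 genes spanned from Calr, a calcium-binding lectin chaperone of glycoproteins, at a median of 1008 TPM over the 16 libraries, to Dnajb9, a J-protein that assists HSPA5 and restrains IRE1, at 14.6 TPM. The general chaperones Hsp90b1 (GRP94) and Hspa5 (BiP) had medians of 806 and 732 TPM. Their ranges, 439 to 1195 and 458 to 1035 TPM, overlapped each other and that of Calr (516 to 1167 TPM), so these neighbours were not separated beyond their spread. The disulfide isomerases Pdia6 and Pdia4 followed at 217 (137 to 370) and 101 TPM (73.9 to 174). Creld2, a disulfide isomerase-like protein, at 75.3 TPM (54.8 to 88.4), Xbp1 at 68.6 TPM (39.3 to 77.9) and Herpud1, which takes part in the degradation of ER proteins, at 49.9 TPM (37.4 to 67.3) overlapped their neighbours. Sdf2l1, a partner of ER J-proteins, was at 36.2 TPM (19.3 to 52.7). Together the 10 genes made up 0.237% to 0.390% of all TPM in replicate 1 and 0.189% to 0.309% in replicate 2.

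**Figure D2:**
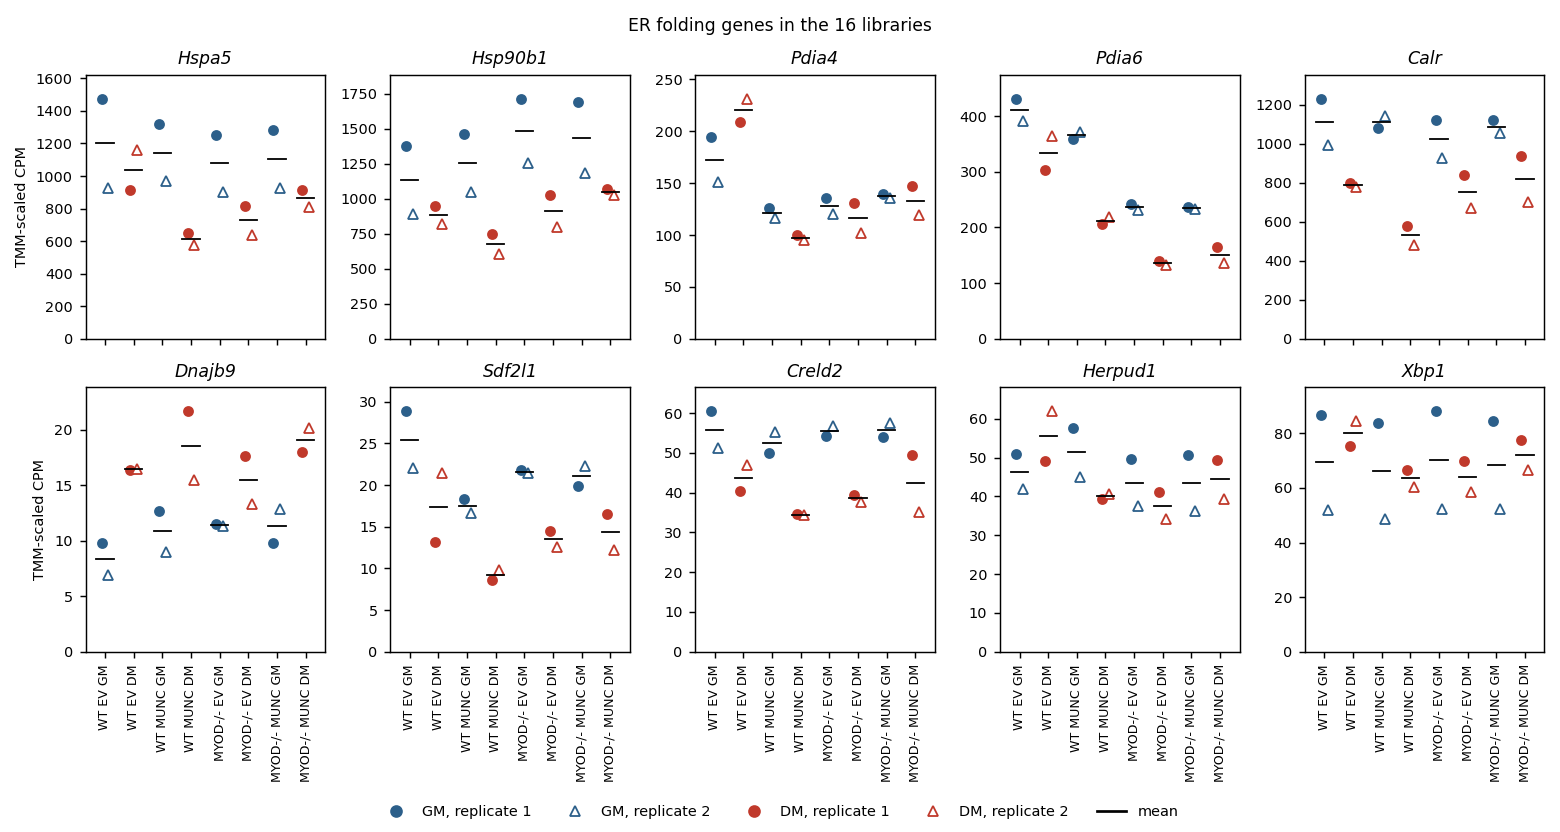
TMM-scaled CPM (y axes, each from 0) of the 10 genes in the 16 libraries, by line and medium (x axes); circles are replicate 1, triangles replicate 2, blue GM, red DM, and bars are means of 2. Dnajb9 lies higher in DM in each line (6.96 to 12.9 CPM in GM, 13.4 to 21.7 CPM in DM), and Calr lies lower in DM in each line.

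Transfer to differentiation medium was followed by lower RNA of most of these chaperones. Averaged over the 4 lines, 6 of the 10 fell (Hspa5, Hsp90b1, Calr, Pdia6, Sdf2l1 and Creld2, by 0.47 to 0.68 on the log2 scale), Dnajb9 rose by 0.73, and Pdia4, Herpud1 and Xbp1 did not pass the test. The 5 genes with an exact ERSE are among the 6 that fell, beside Sdf2l1, a description over few genes. Changes of the other genes with an ERSE were not counted, and a part of the element in the fall was not tested. Over all genes tested, 66.7% passed the edgeR test (36.3% higher, 30.4% lower), so 7 calls among 10 are near the background. The median log2 change of the 10 was -0.49, against 0.07 over all genes. Levels are given below in CPM (counts scaled to a common library total, with TMM scaling factors), with replicate 1 first, and changes as log2 fold change ± SE from edgeR's quasi-likelihood test with Benjamini-Hochberg adjustment over all genes. By limma on log2(TPM + 1), 70.0% of the called genes were higher in DM, against 54.4% by edgeR, and Hspa5 was then not called (adjusted p = 0.108).

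Hspa5 (chr2:34772090-34776529), the HSP70 chaperone that holds the sensors inactive, was measured in the WT-labelled lines at 1476 and 924 CPM (EV, GM), 912 and 1163 CPM (EV, DM), 1320 and 968 CPM (MUNC, GM) and 649 and 576 CPM (MUNC, DM). In the MYOD-/- labelled lines it stood at 1254 and 905 CPM (EV, GM), 814 and 640 CPM (EV, DM), 1282 and 928 CPM (MUNC, GM) and 916 and 808 CPM (MUNC, DM). The groups overlapped in the WT-labelled EV line and did not in the other 3. Of all genes tested, 32.9% (WT-labelled EV), 33.1% (WT-labelled MUNC), 32.9% (MYOD-/- labelled EV) and 31.9% (MYOD-/- labelled MUNC) had both DM libraries below both GM libraries. Both lay above in 35.3%, 39.6%, 40.8% and 38.1%. Each statement below that the CPM of DM and GM did not overlap stands beside these shares. Over the 4 lines Hspa5 fell by 0.51 ± 0.13 on the log2 scale (edgeR adjusted p = 0.00522).

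Hsp90b1 (chr10:86690841-86705444), the HSP90 chaperone of the ER, lay in the WT-labelled lines at 1375 and 888 CPM (EV, GM), 951 and 820 CPM (EV, DM), 1460 and 1049 CPM (MUNC, GM) and 745 and 603 CPM (MUNC, DM). Its MYOD-/- labelled values were 1715 and 1255 CPM (EV, GM), 1025 and 799 CPM (EV, DM), 1691 and 1182 CPM (MUNC, GM) and 1069 and 1025 CPM (MUNC, DM). DM was below GM within each replicate number of every line, and replicate 2 was below replicate 1 in 8 of 8 groups. The shares of all genes with these patterns were not counted. The change over the lines was -0.60 ± 0.13 (edgeR adjusted p = 0.00171).

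Calr (chr8:84842088-84846931) fell in the WT-labelled lines from 1232 and 992 to 798 and 778 CPM with EV, and from 1080 and 1141 to 580 and 483 CPM with MUNC. The MYOD-/- labelled lines held 1124 and 928 CPM (EV, GM), 838 and 672 CPM (EV, DM), 1120 and 1054 CPM (MUNC, GM) and 937 and 700 CPM (MUNC, DM). No DM library reached a GM library of its own line, as held for 31.9% to 33.1% of all genes by line. Over the lines Calr fell by 0.60 ± 0.09 on the log2 scale (edgeR adjusted p = 0.000105).

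Pdia6 (chr12:17266589-17284785), an isomerase that also binds IRE1, had the smallest error of the 10. With the WT label it stood at 432 and 391 CPM (EV, GM), 304 and 365 CPM (EV, DM), 359 and 372 CPM (MUNC, GM) and 205 and 219 CPM (MUNC, DM). With the MYOD-/- label it stood at 242 and 232 CPM (EV, GM), 140 and 133 CPM (EV, DM), 236 and 233 CPM (MUNC, GM) and 165 and 136 CPM (MUNC, DM). The media did not overlap in any line, and the change over the lines was -0.63 ± 0.06 (edgeR adjusted p = 4.25e-06).

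Sdf2l1 (chr16:17130138-17132383) held 28.8 and 22.1 CPM (GM) and 13.2 and 21.5 CPM (DM) in the WT-labelled EV line, and 18.4 and 16.7 against 8.62 and 9.81 CPM in the WT-labelled MUNC line. In the MYOD-/- labelled lines it held 21.8 and 21.5 against 14.4 and 12.5 CPM (EV) and 19.9 and 22.3 against 16.6 and 12.2 CPM (MUNC). GM lay above DM without overlap in all 4 lines, and the change was -0.68 ± 0.11 (edgeR adjusted p = 0.000275). Creld2 (chr15:88819646-88826681) moved with it: their log2 CPM correlated at 0.92 over the 16 libraries, the highest of the 45 pairs. Its GM libraries lay between 49.9 and 60.4 CPM and its DM libraries between 34.3 and 49.5 CPM, with a change of -0.47 ± 0.08 (edgeR adjusted p = 0.000230).

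Dnajb9 (chr12:44205897-44210068) went the other way. It rose from 9.85 and 6.96 to 16.4 and 16.5 CPM in the WT-labelled EV line and from 12.7 and 9.03 to 21.7 and 15.5 CPM with MUNC. The MYOD-/- labelled lines stood at 11.5 and 11.4 CPM (EV, GM), 17.6 and 13.4 CPM (EV, DM), 9.82 and 12.9 CPM (MUNC, GM) and 18.02 and 20.2 CPM (MUNC, DM). Every DM library was above both GM libraries of its line, as held for 35.3% to 40.8% of all genes by line. The change over the lines was 0.73 ± 0.12 (edgeR adjusted p = 0.000236).

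Pdia4 (chr6:47796141-47813512), Herpud1 (chr8:94386429-94395371) and Xbp1 (chr11:5520641-5525993) showed no call over the lines, with log2 changes of -0.04 ± 0.08, -0.07 ± 0.11 and 0.02 ± 0.17 (edgeR adjusted p = 0.706, 0.584 and 0.919). Pdia4 stood at 194 and 151 against 209 and 231 CPM (GM against DM, WT-labelled EV), 126 and 116 against 99.6 and 95.6 CPM (WT-labelled MUNC), 136 and 121 against 131 and 102 CPM (MYOD-/- labelled EV) and 139.6 and 135 against 147 and 119 CPM (MYOD-/- labelled MUNC). DM was thus above GM in the WT-labelled EV line, below it in the WT-labelled MUNC line, and overlapped it in the others. Herpud1 lay between 36.3 and 57.7 CPM in GM and between 34.2 and 61.9 CPM in DM. Within replicate numbers, Pdia4 was lower in DM in 5 of 8 comparisons, Herpud1 in 6 and Xbp1 in 4. Hsp90b1, Calr, Pdia6, Sdf2l1 and Creld2 were lower in 8 of 8, Hspa5 in 7 of 8, and Dnajb9 was higher in 8 of 8. The share of all genes with such counts was not determined, so the counts do not set these genes apart. The labels do not mark the replicate numbers as pairs. Xbp1 in GM was 83.9 to 88.1 CPM in replicate 1 and 48.5 to 52.3 CPM in replicate 2, a gap larger than any medium difference of its group means.

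**Figure D3:**
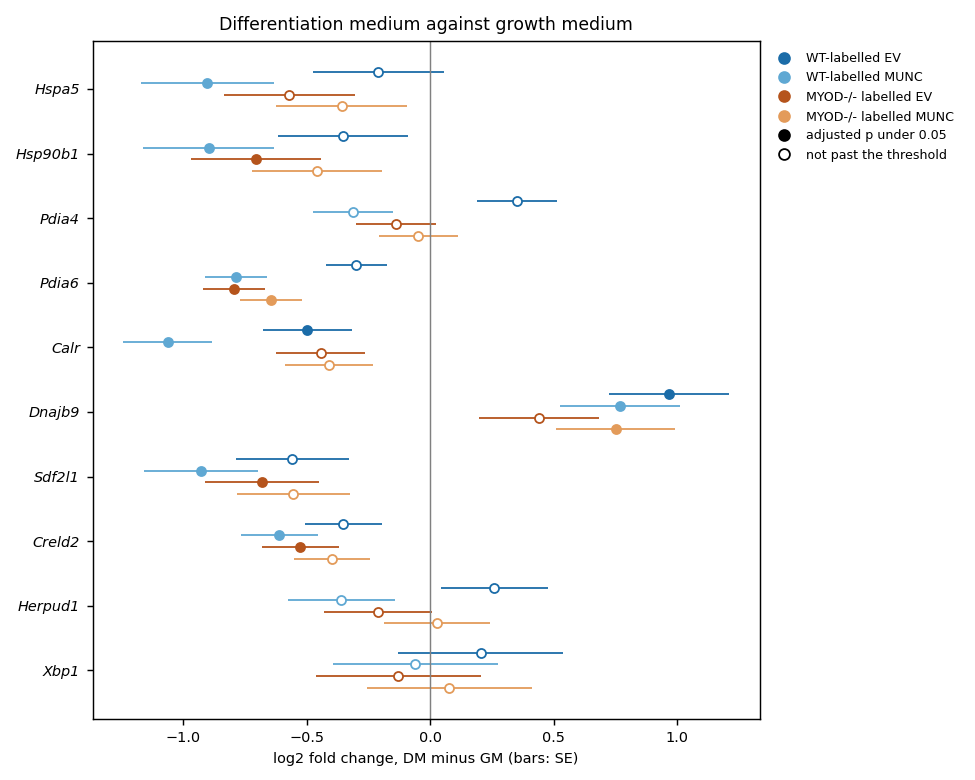
Log2 fold change of DM against GM (x axis; points are edgeR estimates, bars SE) for each of the 10 genes in the 4 lines; filled points have an adjusted p under 0.05. Dnajb9 lies to the right in all 4 lines, and Hspa5, Hsp90b1, Pdia6, Calr, Sdf2l1 and Creld2 lie to the left.

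Line by line, the WT-labelled MUNC cells gave 7 calls: Hspa5 (-0.90 ± 0.27), Hsp90b1 (-0.90 ± 0.26), Pdia6 (-0.79 ± 0.13), Calr (-1.06 ± 0.18), Sdf2l1 (-0.93 ± 0.23), Creld2 (-0.61 ± 0.16) and Dnajb9 (0.77 ± 0.24). Over all genes, 39.8% were called in that line (20.5% higher, 19.2% lower). The WT-labelled EV cells gave 2 calls, Calr (-0.50 ± 0.18) and Dnajb9 (0.97 ± 0.24), against 37.5% of all genes (19.2% higher, 18.3% lower). MYOD-/- labelled EV cells gave 4, Hsp90b1 (-0.70 ± 0.26), Pdia6 (-0.79 ± 0.13), Sdf2l1 (-0.68 ± 0.23) and Creld2 (-0.52 ± 0.16), against 43.2% (23.5% higher, 19.7% lower). MYOD-/- labelled MUNC cells gave 2, Pdia6 (-0.64 ± 0.13) and Dnajb9 (0.75 ± 0.24), against 44.8% (24.4% higher, 20.4% lower). The share of all called genes that were higher in DM was 51.2%, 51.6%, 54.4% and 54.4% in the WT-labelled EV, WT-labelled MUNC, MYOD-/- labelled EV and MYOD-/- labelled MUNC lines by edgeR. It was 65.5%, 68.6%, 72.5% and 72.6% by limma on log2(TPM + 1), which moved the median of all genes from 0.08 to 0.19 and from 0.05 to 0.19 in the MYOD-/- labelled lines.

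Many of these single-line calls were lost in fits with 1 library fewer, which have fewer samples, and each such fit is given by its log2 change with the edgeR adjusted p in parentheses. In the WT-labelled EV line, Calr was not called without GM replicate 1 at -0.33 (0.270), DM replicate 1 at -0.50 (0.144) or DM replicate 2 at -0.47 (0.149), and Dnajb9 was not called without GM replicate 2 at 0.74 (0.0871). Without DM replicate 2, Pdia6 at -0.43 (0.0469) and Sdf2l1 at -0.94 (0.0119) were called there. In the WT-labelled MUNC line, Hspa5 was not called without GM replicate 1 at -0.66 (0.138), DM replicate 1 at -1.01 (0.0597) or DM replicate 2 at -0.82 (0.109). Hsp90b1 was not called there without GM replicate 1 at -0.64 (0.142) or DM replicate 2 at -0.76 (0.125). Dnajb9 was not called without GM replicate 2 at 0.54 (0.186) or DM replicate 1 at 0.49 (0.221), Sdf2l1 without DM replicate 1 at -0.86 (0.0608), and Creld2 without GM replicate 2 at -0.54 (0.0596) or DM replicate 2 at -0.61 (0.0518). In the MYOD-/- labelled EV line, Hsp90b1 (edgeR adjusted p = 0.04998 with all libraries) was not called without GM replicate 1 at -0.52 (0.202), DM replicate 1 at -0.96 (0.0526) or DM replicate 2 at -0.54 (0.255). Sdf2l1 was not called there without any 1 of the 4 libraries, at -0.58 to -0.85 (0.0574 to 0.170), and Creld2 was not called without GM replicate 2 at -0.56 (0.0520) or DM replicate 2 at -0.49 (0.0970). Calr was called there without GM replicate 2 at -0.65 (0.0431) or DM replicate 1 at -0.67 (0.0398). In the MYOD-/- labelled MUNC line, Dnajb9 was not called without GM replicate 1 at 0.57 (0.137), DM replicate 1 at 0.79 (0.0669) or DM replicate 2 at 0.63 (0.131). Without DM replicate 1, Calr at -0.68 (0.0284), Sdf2l1 at -0.83 (0.0446) and Creld2 at -0.71 (0.00609) were called there. Pdia6 and, in the WT-labelled MUNC line, Calr kept their calls without each library. By limma on log2(TPM + 1) the calls ended for Calr in the WT-labelled EV line (limma adjusted p = 0.248), Hspa5 (0.0765) and Hsp90b1 (0.0889) in the WT-labelled MUNC line, and Hsp90b1 (0.239), Sdf2l1 (0.104) and Creld2 (0.135) in the MYOD-/- labelled EV line. Calr in the WT-labelled EV line was also lost by edgeR with DESeq2 size factors (0.0569), with no filter (0.0687) and with a filter of 5 CPM (0.0523).

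No gene of the 10 passed the test of a difference in response between lines by edgeR's quasi-likelihood test with Benjamini-Hochberg adjustment and no replicate block. With the replicate number as a block, Pdia4 was called for MUNC in WT-labelled cells (-0.68, edgeR adjusted p = 0.0495). Of all genes, 486 were then called higher and 547 lower. The labels do not mark the replicate numbers as pairs. For the genotype label within EV cells, 0 of 10 were called (2.58% of all genes, 1.66% higher and 0.922% lower) and 1 had an unadjusted p under 0.05 (Pdia6, DM minus GM differed by -0.50 ± 0.18 with the MYOD-/- label). DESeq2 called that 1 (adjusted p = 0.0485). For the genotype label within MUNC cells, 0 of 10 were called (1.38% of all genes, 1.24% higher and 0.140% lower) and Calr alone had an unadjusted p under 0.05 (0.65 ± 0.25), with 0 by DESeq2. For MUNC in WT-labelled cells, 0 of 10 were called (3.33% of all genes, 1.24% higher and 2.09% lower) and 3 had an unadjusted p under 0.05, Pdia4 (-0.66 ± 0.23), Pdia6 (-0.49 ± 0.18) and Calr (-0.57 ± 0.25), with 0 by DESeq2. For MUNC in MYOD-/- labelled cells, 0 of 10 and 0 of all genes were called (percent called 0), with 114 genes but none of the 10 at an unadjusted p under 0.05 and 0 genes by DESeq2. The share of called genes with a higher response moved from 64.3% to 50.6% (genotype, EV) and from 89.8% to 75.5% (genotype, MUNC) with DESeq2. These tests share libraries with one another, so they are not separate evidence.

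Of the 10 genes, Pdia6 was called in all 4 comparisons of the genotype labels. It was lower with the MYOD-/- label, with log2 differences of -0.80 ± 0.13 in EV GM (edgeR adjusted p = 0.00233), -1.29 ± 0.13 in EV DM (4.63e-05), -0.64 ± 0.13 in MUNC GM (0.00849) and -0.50 ± 0.12 in MUNC DM (0.0153). It was the 1 gene of the 10 called in GM. Of all genes, 10.4% passed there with EV (4.58% higher, 5.77% lower) and 9.99% with MUNC (4.98% higher, 5.02% lower). In DM, 2 of the 10 were called with EV, where 31.4% of all genes passed (15.3% higher, 16.1% lower), and 2 with MUNC, where 22.7% passed (12.8% higher, 9.89% lower). The second with EV was Pdia4, at 209 and 231 CPM with the WT label and 131 and 102 CPM with the MYOD-/- label (-0.92 ± 0.16, adjusted p = 0.00162). With MUNC it was Calr, at 580 and 483 CPM against 937 and 700 CPM, higher with the MYOD-/- label (0.62 ± 0.18, adjusted p = 0.0285). Sdf2l1, Hsp90b1 and Pdia4 had estimates of 0.64 ± 0.23, 0.64 ± 0.26 and 0.45 ± 0.16 in that comparison and were not called.

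Leaving out WT-labelled MUNC GM replicate 2 left Pdia6 uncalled in MUNC GM at a log2 difference of -0.62 (edgeR adjusted p = 0.0606). In MUNC DM, Pdia6 was not called without WT-labelled replicate 2 at -0.45 (0.108) or MYOD-/- labelled replicate 2 at -0.37 (0.134). Calr was not called there without WT-labelled replicate 1 at 0.74 (0.0560), WT-labelled replicate 2 at 0.50 (0.208) or MYOD-/- labelled replicate 1 at 0.39 (0.209), and Creld2 was called without MYOD-/- labelled replicate 2 at 0.52 (0.0419). In EV DM, Sdf2l1 was called without WT-labelled replicate 1 at -0.70 (0.0380). The Pdia6 calls in EV cells and the Pdia4 call held without each library. Of all genes called in EV DM, 48.7% were higher with the MYOD-/- label by edgeR and 59.2% by limma on log2(TPM + 1).

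MUNC was set against the empty vector within each genotype label. In WT-labelled cells in DM, 5 of the 10 were lower with MUNC and 0 higher (33.3% of all genes passed, 17.7% lower and 15.6% higher). Pdia4 showed the largest change, from 209 and 231 to 99.6 and 95.6 CPM (-1.17 ± 0.16, edgeR adjusted p = 0.000289). Sdf2l1 went from 13.2 and 21.5 to 8.62 and 9.81 CPM (-0.91 ± 0.23, adjusted p = 0.0110), and Pdia6 from 304 and 365 to 205 and 219 CPM (-0.66 ± 0.13, adjusted p = 0.00223). Calr went from 798 and 778 to 580 and 483 CPM (-0.57 ± 0.18, adjusted p = 0.0312). Hspa5 went from 912 and 1163 to 649 and 576 CPM (-0.76 ± 0.27, adjusted p = 0.0479). In each of the 5, both MUNC libraries lay below both EV libraries. The calls rest on the same libraries, so this adds no support, and its share over all genes was not counted.

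Of these 5, Pdia4 and Pdia6 kept their calls without each library. Hspa5 was not called without EV replicate 2 at -0.58 (edgeR adjusted p = 0.227), MUNC replicate 1 at -0.85 (0.114) or MUNC replicate 2 at -0.68 (0.202), nor at -0.75 with Zrsr1 left out (0.0517). Calr was not called without EV replicate 1 at -0.57 (0.0844), EV replicate 2 at -0.59 (0.0840) or MUNC replicate 2 at -0.44 (0.193). Sdf2l1 was not called without EV replicate 2 at -0.52 (0.118) or MUNC replicate 1 at -0.82 (0.0804). By limma on log2(TPM + 1), Hspa5 (adjusted p = 0.0758) and Calr (0.0653) were not called. In WT-labelled cells in GM, 0 of 10 were called by edgeR (13.8% of all genes, 6.04% higher and 7.71% lower), 2 had an unadjusted p under 0.05 (Pdia4, -0.51 ± 0.16, and Sdf2l1, -0.54 ± 0.23), and DESeq2 called Pdia4 (adjusted p = 0.0354). Pdia4 was also called by edgeR without EV replicate 2 at -0.68 (0.0458).

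In MYOD-/- labelled cells, MUNC against EV gave 0 calls among the 10 in GM and in DM by edgeR. No gene at all passed there (percent called 0), with 191 genes (GM) and 152 genes (DM) at an unadjusted p under 0.05 and none of the 10 among them, and DESeq2 called 0 and 4 genes. The estimates of the 10 ranged from -0.05 to 0.10 in GM and from 0.09 to 0.30 in DM, with SEs of 0.12 to 0.33. The EV and MUNC comparisons use the libraries of the genotype comparisons again, so Pdia4 and Pdia6, high in the WT-labelled EV libraries in DM, are counted in each.

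**Figure D4:**
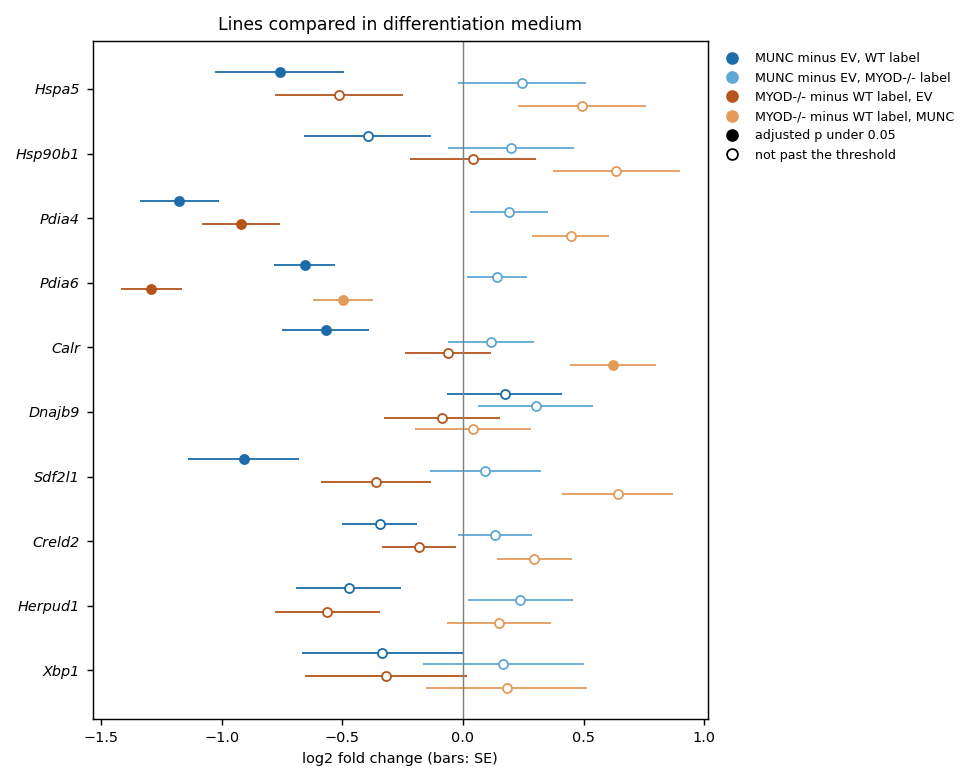
Log2 fold changes between lines in differentiation medium (x axis; points are edgeR estimates, bars SE; filled points have an adjusted p under 0.05) for the 10 genes. Pdia4 and Pdia6 lie left of 0 for MUNC against EV in WT-labelled cells (-1.17 and -0.66) and for the MYOD-/- label against the WT label in EV cells (-0.92 and -1.29).

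Xbp1 was listed as 2 transcripts of 2238 and 2264 bases, which differ by the 26 bases that IRE1 removes. Removal shifts the reading frame and yields the active transcription factor. The removed bases are shown in capitals with 2 flanking bases on each side. They lie in exon 4, within the coding sequence, on the plus strand. The exon was taken from the known IRE1 site, since another pair of the same splice letters at this distance occurs in exon 1.
Xbp1 intron, chr11:5524279-5524304 (GRCm38): cgCAGCACTCAGACTATGTGCACCTCTGca

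The share of Xbp1 estimated counts on the spliced form was lower in DM in each of the 4 lines. It was 18.3% and 28.01% (GM) against 13.6% and 15.6% (DM) in the WT-labelled EV line, and 13.7% and 13.9% against 8.47% and 7.99% in the WT-labelled MUNC line. In the MYOD-/- labelled lines it was 8.21% and 16.8% against 4.86% and 8.48% (EV), and 12.5% and 32.2% against 5.71% and 13.1% (MUNC). The media overlapped in both MYOD-/- labelled lines, where replicate 2 was above replicate 1, and did not overlap in the WT-labelled lines. Over the lines the mean was 17.96% ± 8.15 in GM and 9.73% ± 3.91 in DM (SD, n = 8 libraries each), a difference of -8.23 percentage points (two-sided exact permutation test within lines over 1296 arrangements, p = 0.00617, adjusted over 3 factors 0.0185). It was lower in 8 of 8 comparisons within a replicate number, with a mean difference of -5.02 points in replicate 1 and -11.4 points in replicate 2. Without the MYOD-/- labelled MUNC DM replicate 1 the exact permutation p was 0.0586. Without the MYOD-/- labelled MUNC GM replicate 2, which held the highest share, the difference was -5.77 points (exact permutation p = 0.0139).

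The genotype label gave a difference in the spliced share of -2.22 points (exact permutation p = 0.542, adjusted 0.813). MUNC gave -0.77 points (exact permutation p = 0.838, adjusted 0.838). Each was negative in 2 of 4 pairs of groups, and the averages join opposite signs. With MUNC the mean share was lower under the WT label (23.2% to 13.8% in GM, 14.6% to 8.23% in DM). Under the MYOD-/- label it was higher (12.5% to 22.4% and 6.67% to 9.42%), where the libraries overlapped. The genotype difference was likewise negative with EV and positive with MUNC. These opposite signs were not tested. By amount, the spliced form lay between 3.40 and 13.2 CPM in DM and between 6.77 and 16.8 CPM in GM. The unspliced form in GM was 71.0 to 80.8 CPM in replicate 1 and 35.4 to 43.5 CPM in replicate 2. In DM the unspliced form was 53.5 to 73.1 CPM. The spliced form in GM, replicate 1 first, was 15.9 and 14.6 CPM (WT-labelled EV) and 11.5 and 6.77 CPM (WT-labelled MUNC). With the MYOD-/- label it was 7.23 and 8.76 CPM (EV) and 10.6 and 16.8 CPM (MUNC). The gap in share between replicates in GM thus varied by line and was near absent in the WT-labelled MUNC line (13.7% and 13.9%). The share is kallisto's division of fragments between transcripts, not a count of reads across the junction, and rests on 177 to 983 estimated counts of the spliced form per library.

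**Figure D5:**
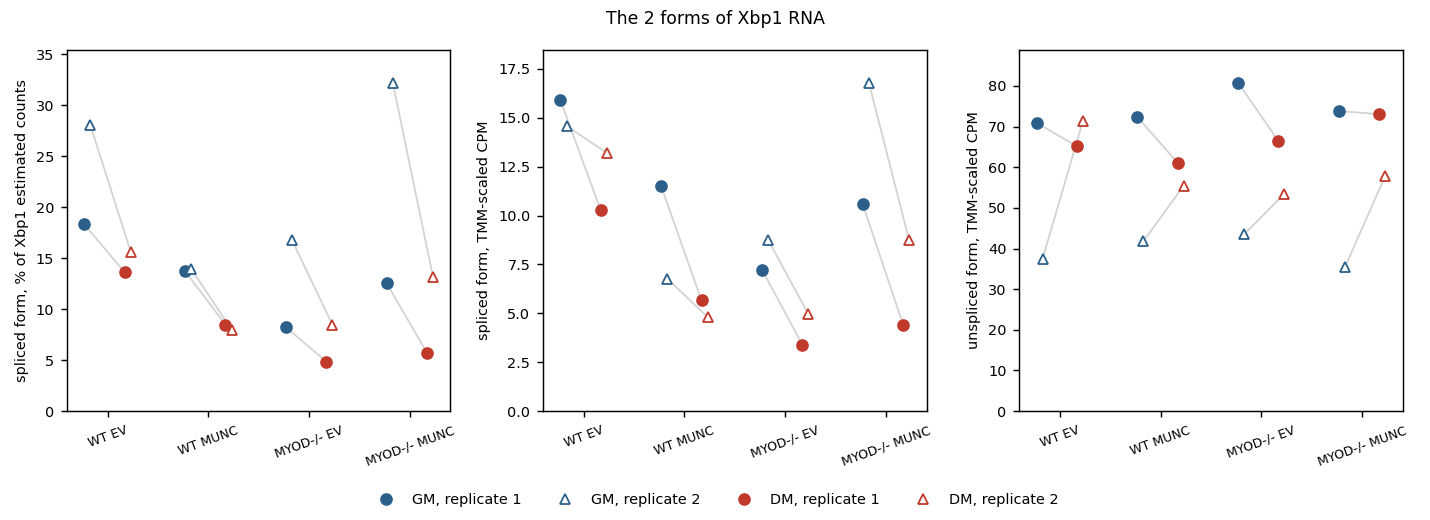
Left, share of Xbp1 estimated counts on the spliced form (%); middle and right, TMM-scaled CPM of the spliced and the unspliced form, by line (x axes); circles are replicate 1, triangles replicate 2, blue GM, red DM, and grey lines join the same replicate number. Each grey line in the left panel falls from GM to DM.

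Other genes of the pathway were counted by list, over the 4 lines, DM against GM. Of 24 other ER folding genes, 3 rose and 10 fell (median -0.19, against 0.07 over all genes), where over all genes 36.3% were higher and 30.4% lower. Those that rose included Fkbp14, a prolyl isomerase, by 1.19 ± 0.22, and Sil1, the exchange factor of HSPA5, by 0.91 ± 0.07. Manf, a secreted stress protein that binds HSPA5, changed by -0.74 ± 0.11 and Fkbp11 by -0.85 ± 0.09 (edgeR adjusted p from 5.02e-07 to 0.000536 for the 4). Of 16 genes of translocation into the ER, 3 rose and 9 fell (median -0.29, against the same shares over all genes), with Ssr1, of the translocon-associated complex, at -0.94 ± 0.09.

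Of 15 genes of ER-associated degradation 8 rose and 3 fell (median 0.36), beside 36.3% higher and 30.4% lower over all genes. The lectins Os9 and Erlec1, which deliver misfolded glycoproteins, rose by 1.09 ± 0.05 and 1.06 ± 0.07, while Vcp, the extracting ATPase, changed by -0.48 ± 0.05 (edgeR adjusted p = 2.58e-08, 1.65e-07 and 1.21e-05). Of 9 stress sensors and their proteases 7 rose and 0 fell (median 0.65), and within the WT-labelled EV, WT-labelled MUNC, MYOD-/- labelled EV and MYOD-/- labelled MUNC lines 4, 5, 6 and 6 rose and 0 fell. The shares of all genes called higher in these lines were 19.2%, 20.5%, 23.5% and 24.4%. Atf6, a sensor, went from 105 ± 0.906 to 167 ± 3.99 CPM in the WT-labelled EV line and from 126 ± 5.33 to 275 ± 23.3 CPM in the MYOD-/- labelled EV line (SD, n = 2), and rose by 0.88 ± 0.07 over the 4 lines (edgeR adjusted p = 5.71e-07).

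The PERK and ATF4 arm, 11 genes, was described by line. In the WT-labelled EV line 8 of 11 rose in DM and 0 fell (median 1.55), beside 19.2% higher and 18.3% lower over all genes. In the WT-labelled MUNC line 1 rose and 3 fell (median -0.10), and in the MYOD-/- labelled EV and MUNC lines 0 rose and 2 fell (medians -0.41 and -0.71), where 19.2%, 19.7% and 20.4% of all genes were lower. In the WT-labelled EV line Ddit3, which encodes the stress factor CHOP, stood at 24.8 and 24.8 CPM in GM and 182 and 248 CPM in DM (3.11 ± 0.25, edgeR adjusted p = 7.69e-06). It stood at 25.9 to 53.2 CPM in the 6 DM libraries of the other lines. In DM, 10 of 11 were lower with the MYOD-/- label in EV cells (median -1.97), and 10 of 11 were lower with MUNC in WT-labelled cells (median -1.72), beside 16.1% and 17.7% lower over all genes. Trib3, a pseudokinase target of ATF4 and CHOP, was at -3.74 ± 0.52 in the first and Asns, asparagine synthetase, at -2.89 ± 0.34 in the second (edgeR adjusted p = 0.000414 and 0.000102). Fkbp11, of the folding list, was at -1.84 ± 0.19 and -1.44 ± 0.18 in these comparisons, and Ero1a, which oxidises disulfide isomerases, at -2.24 ± 0.24 and -2.07 ± 0.24 (edgeR adjusted p of 5.62e-05, 0.000173, 8.61e-05 and 9.11e-05). Both comparisons use the WT-labelled EV libraries in DM. Of the 10 chaperone genes, 2 and 5 were lower in these comparisons, with medians of -0.34 and -0.52.

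Among themselves the 10 genes had a median pairwise correlation of 0.50 over the 16 libraries (45 pairs of log2 CPM, from -0.72 to 0.92, 21 above 0.5). The 8 pairs below 0 all held Dnajb9, lowest with Creld2. After the means of medium and replicate were removed the median was 0.44, and Dnajb9 with Creld2 went from -0.72 to -0.07. Pairs with Dnajb9 then lay between -0.30 and 0.35. The lowest pair was then Hsp90b1 with Pdia6, at -0.50 against 0.20 before. All libraries of a medium or replicate number share what the label names, so these values are descriptions. Of 10132 genes with a mean of at least 5 CPM, those most like the mean z-score of the 10 over the 16 libraries were Vdac3 (r = 0.90), Hint1 (0.90), Tars (0.89), Tmem126a (0.89) and Hax1 (0.88).

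In all, 33 of the 170 pairs of a gene and a comparison were called, and 15 of these kept their call in every alternative analysis. By comparison, 0% to 66.7% of all genes were called, so the count of 33 does not set these genes apart. Apart from the change of medium over the lines, the pairs that kept their call were of Pdia6, Pdia4 and, in the WT-labelled MUNC line, Calr. The comparisons share libraries, so the pairs are not separate evidence.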

How the data were processed

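Poly(A) RNA was purified with RNeasy columns and made into NEBNext Ultra Directional libraries, sequenced as pairs of 75-base reads, per the labels' protocols. The submitters' processing notes name bcl2fastq, kallisto and mm10. No version, transcript set or strand setting was given in the sources used here, so reads of genes overlapping on opposite strands could not be told apart. The deposited tables hold, per the file headers, estimated counts and TPM for each of 35818 transcripts, which the authors made with kallisto.

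Transcripts were joined to genes by the RefSeq table of GRCm38.p6 (35492) or GENCODE M21 (188). The 138 left, with 0.280% to 0.941% of counts, stayed out of totals and tests. Estimated counts were summed per gene and rounded to whole numbers. The fit used edgeR 4.0.16 (R 4.3.3) with TMM and filterByExpr (14972 of 24497 genes) in 1 fit of a mean per group over 16 libraries, with 8 residual degrees of freedom and a quasi-likelihood F test for each of 17 comparisons. Benjamini-Hochberg adjustment covered all genes tested, with a threshold of 0.05. CPM values are TMM-scaled, and SEs are those of the fitted log2 change. The pipeline was tested on simulated data. For the edgeR fit these held no shift between replicate numbers, so they do not show how such a shift bears on the calls. Libraries of a group differed by more than counting noise (chi-square divided by its degrees of freedom, 154 to 597). These values include Zrsr1, which differed strongly between the replicate numbers, and its part in them was not separated. An exact permutation test was used for the Xbp1 share. Alternatives were DESeq2 1.42.0, its size factors in edgeR, no filter, 5 CPM in 2 libraries, a replicate block, limma 3.58.1 on log2(TPM + 1), the share of TPM for Xbp1, each library left out, and, chosen after seeing the data, Zrsr1 left out. A group left with 1 library was taken to vary like the others.

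The 10 genes, the lists and the tests were chosen with earlier results of these data known. All 10 genes were named by rule. Within a list, up to 2 genes with the largest called change each way could be named, and the 5 genes most like the group were named by correlation. Coordinates are GRCm38, counted from 1.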

Additional observations from a re-analysis of the deposited data

Results flagged for a closer look

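The values below are of 6 genes named from the pathway lists whose response to differentiation differed between lines by edgeR's interaction test. They are not all that passed: of the 11 PERK and ATF4 genes, 4 were called for the genotype label within EV cells and 4 for MUNC within WT-labelled cells, and Ddit3 and Chac1 are named. Both interactions share the 4 WT-labelled EV libraries. Ddit3 differed by -2.75 (adjusted p = 0.00353) for the genotype label and -3.15 (0.000527) for MUNC, and kept both calls without each library. Ero1a, an oxidase that recharges disulfide isomerases, differed by -2.09 (0.0127) and -1.75 (0.0163). It lost the first call without 3 of the 8 libraries and the second without 4 of 8 (edgeR adjusted p up to 0.0603 and 0.0831). Its CPM in the WT-labelled EV line was 128 and 91.4 in GM and 256 and 265 in DM. In the 6 DM libraries of the other lines it was 43.0 to 68.7.

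Chac1, a glutathione-degrading enzyme induced by ATF4, differed by -2.41 (0.0474, lost without 7 of 8 libraries, up to 0.180) and -2.95 (0.0163, lost without 4 of 8, up to 0.0811). Hspa9, a mitochondrial HSP70, differed by -1.08 (0.0308, lost without 7 of 8, up to 0.139) and -1.12 (0.0209, lost without 4 of 8, up to 0.104). Creb3l2, an ER-bound transcription factor, differed by 1.15 for the genotype label in EV cells (0.0192, lost without 5 of 8, up to 0.115). Hsp90aa1, a cytosolic HSP90, differed by 1.30 for the genotype label in MUNC cells (0.0215, lost without 5 of 8, up to 0.108). It differed by -1.02 for MUNC in WT-labelled cells (0.0389, lost without 7 of 8, up to 0.159). The p-values are edgeR adjusted p.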

How the results depend on the processing

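No result reversed its direction past the threshold. Counts of the 10 genes that moved by over 1.5 times are given first. DM against GM in the WT-labelled EV line gave 1 with DESeq2 size factors, no filter or 5 CPM in 2 libraries, in the MYOD-/- labelled EV line 1 with limma on log2(TPM + 1), and in the MYOD-/- labelled MUNC line 4 with 5 CPM or DESeq2. The genotype label in MUNC DM gave 4 with limma, and its interaction in EV cells 1 with DESeq2. MUNC in WT-labelled cells gave 1 with DESeq2 (GM) and 3 with limma (DM). All genes gave, higher and lower in the same order, 2932 and 2660, 2831 and 2411, and 2390 and 2424 in the WT-labelled EV line. They gave 5125 and 1947 in the MYOD-/- labelled EV line, and 2787 and 2918 or 3647 and 3319 in the MYOD-/- labelled MUNC line. The genotype label in MUNC DM gave 2299 and 1237, and MUNC in WT-labelled cells 1260 and 1404 (GM) and 2498 and 2433 (DM). Over all genes, limma and DESeq2 gave 1046 and 994 calls for the genotype interaction in EV cells (387 by edgeR), 563 and 497 in MUNC cells (206), and 944 and 1155 for the MUNC interaction in WT-labelled cells (499). In MYOD-/- labelled cells MUNC gave 3 with limma in GM, 2, 7 and 4 with no filter, limma and DESeq2 in DM, and 1 for the interaction with limma. The cause of these shifts was not tested.

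The replicate numbers do not mark pairs in the labels, and correlations of deviations between groups ran from -0.01 to 0.71, 23 of 28 above 0.1. With the replicate number as a block, the 10 genes gave 5 calls in DM against GM of the MYOD-/- labelled MUNC line, 2 (EV GM), 4 (EV DM) and 4 (MUNC DM) for the genotype label, 1 for MUNC in WT-labelled GM and 1 for its interaction, both Pdia4 (edgeR adjusted p = 0.0186 and 0.0495). All genes gave 2405 and 2379 calls for the genotype label in GM (EV, MUNC) and 898, 388 and 1033 for the 3 interactions above. Of the 14972 genes tested, the block gave 4379 higher and 3545 lower for DM against GM of the MYOD-/- labelled MUNC line. It gave 2916 and 3098 (EV DM) and 2550 and 2083 (MUNC DM) for the genotype label, and 1357 and 1629 for MUNC in WT-labelled GM. The Xbp1 share difference with the replicate block was -8.23 points (exact permutation p = 0.00781).

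With each library left out, counts of the 10 ranged from 1 to 3, 4 to 5, 1 to 3 and 1 to 4 for DM against GM in the WT-labelled EV, WT-labelled MUNC, MYOD-/- labelled EV and MYOD-/- labelled MUNC lines. They ranged from 0 to 1 and 0 to 2 for the genotype label in MUNC GM and DM, and from 0 to 1 and 2 to 4 for MUNC in WT-labelled GM and DM. Counts of all genes ranged from 4290 to 5841 for DM against GM of the MYOD-/- labelled EV line. For the genotype label they ranged from 700 to 847 (EV GM), 2606 to 3822 (EV DM), 607 to 1573 (MUNC GM) and 1593 to 2361 (MUNC DM), for MUNC in WT-labelled cells from 963 to 1200 (GM) and 3140 to 4119 (DM), and for the interactions from 57 to 333, 59 to 279 and 198 to 496. Each such fit has fewer samples and leaves 1 group with 1 library. With all libraries, 37.5%, 39.8%, 43.2% and 44.8% of all genes were called for DM against GM in these lines, and 66.7% over the 4 lines. The counts of the 10 describe dependence on single libraries and are no result about the 10 genes. The Xbp1 share difference ranged from -10.7 to -5.77 points. Over the 4 lines, 7 of the 10 genes were called without each library. What depth limits was not tested.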

Other observations

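Lists of chaperones outside the ER were counted, DM against GM, beside 36.3% of all genes higher and 30.4% lower. Of 7 mitochondrial chaperones, 6 fell and 0 rose over the 4 lines (median -0.88), with Hspd1 (HSP60) from 1116 ± 173 to 407 ± 50.8 CPM in the WT-labelled EV line and from 1159 ± 2.07 to 302 ± 29.6 CPM in the MYOD-/- labelled EV line (SD, n = 2). Its change over the lines was -1.83 ± 0.08 and that of its partner Hspe1 -1.11 ± 0.09 (edgeR adjusted p = 1.51e-08 and 9.33e-07). Of 13 cytosolic heat shock genes, 9 fell and 1, the co-chaperone Bag3, rose by 0.25 ± 0.05, while 3 did not pass (median of the list -0.59). Hsph1, an HSP110, changed by -1.55 ± 0.08 and Stip1, which links HSP70 and HSP90, by -1.05 ± 0.06 (edgeR adjusted p = 2.69e-08 and 6.09e-08). Whether these lists differ from the ER chaperones was not tested.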
